A study of Mus musculus with 65 samples.

Results

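The genes described here are 10 genes of white fat cells and their lipid droplets: Adipoq, Plin1, Plin4, Cidec, Fabp4, Lep, Pparg, Cd36, Lpl and Retn. A gene was included when a probe set of the array was annotated to it alone. This held for 9 of the 10, with 15 probe sets between them, out of 18194 genes on the array. For Plin1 the annotation used here lists no such probe set, and Plin1 is not analysed here. Messenger RNA was measured on Affymetrix arrays in 17 mouse mammary glands and 48 mammary tumours. The comparisons set irradiated against sham-treated tissue, and mice with both copies of the TGF-beta1 gene Tgfb1 against mice with one.

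All mice were BALB/c. The glands came from littermates that were wild type (WT) or heterozygous (HT) for Tgfb1, 10 weeks old, and all received estrogen and progesterone before treatment with 10 cGy or sham. There were 3 WT sham glands, 3 WT glands 1 week after 10 cGy and 3 WT glands 4 weeks after 10 cGy. There were 3 HT sham glands, 2 HT glands at 1 week and 3 HT glands at 4 weeks. Sham glands were collected at 1 week only, so every 4-week comparison also spans a difference in age. Only the rear portion of each inguinal gland was used for RNA, without its lymph node. All tumours grew from p53null mammary fragments placed in inguinal fat pads that had been cleared of their own epithelium, in female hosts irradiated or sham-treated 3 days earlier. The hosts were WT or Tgfb1 heterozygous; the sources used here give no dose for them. There were 9 tumours from WT sham hosts, 23 from WT irradiated (IR) hosts, 6 from HT sham hosts and 10 from HT IR hosts. The labels do not say whether gland repeats are separate animals, so p-values in glands measure only the spread between these arrays, which may be partly technical.

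White fat cells fill most of the mammary fat pad and store triglyceride in a single large lipid droplet. The nuclear receptor PPARG switches on the genes of fat cell differentiation, among them those for fatty acid uptake, for the droplet coat and for the hormones that fat cells release. In the mammary gland, epithelium grows within this fat, and a tumour placed in a cleared fat pad grows next to it.

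The sequence just before the start was printed for 4 of these genes. Adipoq, Cidec and Retn are shown because they varied closely together across the tumours, and Lep because it was the most variable of the genes in glands. Plin4 varied as closely with the first 3 (r from 0.82 to 0.92) and is not printed. Each printed sequence is the 250 bases before the RefSeq gene start on assembly GRCm38.p6, written 5′ to 3′ on the gene's strand. The windows lie at chr16:23146286-23146535 (Adipoq, plus strand), chr6:113435761-113436010 (Cidec, minus strand), chr8:3655520-3655769 (Retn, plus strand) and chr6:29059971-29060220 (Lep, plus strand). Capitals mark matches to the motifs named after the sequences.
Adipoq: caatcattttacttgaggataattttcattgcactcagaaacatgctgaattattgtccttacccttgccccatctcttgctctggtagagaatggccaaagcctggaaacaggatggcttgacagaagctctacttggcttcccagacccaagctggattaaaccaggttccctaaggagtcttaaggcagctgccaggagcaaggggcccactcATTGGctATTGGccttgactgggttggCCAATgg
Cidec: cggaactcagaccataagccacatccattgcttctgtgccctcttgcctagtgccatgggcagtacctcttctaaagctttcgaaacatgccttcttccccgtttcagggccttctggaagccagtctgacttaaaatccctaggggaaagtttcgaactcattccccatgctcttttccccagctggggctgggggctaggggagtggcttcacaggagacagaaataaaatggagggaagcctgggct
Retn: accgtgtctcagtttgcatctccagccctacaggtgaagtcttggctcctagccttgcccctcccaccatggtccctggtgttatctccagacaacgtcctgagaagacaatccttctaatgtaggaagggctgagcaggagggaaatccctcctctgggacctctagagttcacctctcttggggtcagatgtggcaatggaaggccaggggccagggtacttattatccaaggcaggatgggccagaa
Lep: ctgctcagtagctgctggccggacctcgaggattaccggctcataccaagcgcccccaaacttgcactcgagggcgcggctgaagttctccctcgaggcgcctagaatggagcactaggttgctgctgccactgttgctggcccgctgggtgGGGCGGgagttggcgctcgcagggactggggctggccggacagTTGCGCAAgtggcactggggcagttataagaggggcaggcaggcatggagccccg
The motifs searched on both strands were the CCAAT box (CCAAT), the C/EBP motif (TTGCNNAA), the TATA box (TATAAA), the GC box (GGGCGG), the PPAR core site (AGGTCA) and the direct repeat of that core with 1 base between. The repeat contains the core, so the last 2 overlap. In the Adipoq window the CCAAT box was found 3 times, at 34, 27 and 7 bases before the start. The Lep window held a C/EBP match at 55 bases before the start, which reads the same on both strands, and a GC box at 98 bases before it. The Retn window and the printed Cidec window held no match to any of the 6 motifs. A second Cidec window, which starts within the gene and is not printed, held a C/EBP match at 198 bases before its start. RefSeq promoter windows were listed for 7 of the 9 genes, 10 windows in all (3 for Pparg, 2 for Cidec), and none for Lpl or Fabp4. Of these 10 windows, 5 held a CCAAT box against 33.8% of 32851 mouse windows of that length. A C/EBP match was in 3 (9.56% of all), a TATA box in 1 (12.4%), a GC box in 4 (32.7%) and a PPAR core site in 3 (14.0%). Windows of the same gene are counted apart, and the PPAR core site was found only in windows of Pparg and Cd36. The direct repeat was in 0 of 10 and in 0.0335% of all windows. A match is a description of letters, not a binding site.

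Array medians ranged from 29.1 to 30.6 in deposited gland intensity and from 5.84 to 5.96 in deposited tumour log2 units. The tissues were processed on different scales and are kept apart. Levels are log2 values, differences are in log2 units with the standard error (SE) of a limma fit over all arrays of a tissue, and a gene counted as changed when its p, adjusted over all tested genes, was under 0.05. The fits covered 12945 gland genes and 12786 tumour genes, after genes with a mean level under 4.15 (glands) or 5.14 (tumours) were set aside. All 9 measured fat genes passed this filter in glands and 8 in tumours, where Lep did not. The 4 glands richest in skeletal muscle markers were all WT, and 3 glands carried raised B cell and lymph node markers. Where the number of fat genes that were higher moved without either set, both values are given. The labels of 1 tumour in the WT IR group conflict about radiation, and its title decided the group.

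None of the 9 passed the adjusted threshold in any of the 9 comparisons of the 17 glands, and the lowest limma adjusted p was 0.227. The transcription factor gene Pparg ranged from 8.77 to 9.49. Among the secreted products, Adipoq (adiponectin) ranged from 13.19 to 13.59, Retn (resistin) from 12.03 to 13.02 and Lep (leptin, the hormone that reports fat stores) from 7.83 to 9.98. Lep thus spanned 4.43-fold from its lowest to its highest gland, against 1.32-fold for Adipoq. Among the genes of fatty acid supply, Lpl, the lipase that frees fatty acids from circulating triglyceride, ranged from 13.07 to 13.45. Cd36, a fatty acid uptake receptor, ranged from 11.75 to 12.49. Fabp4, the fatty acid carrier of fat cells, ranged from 13.83 to 14.14. The droplet coat gene Plin4 ranged from 10.95 to 12.22 and Cidec, whose protein drives droplets to fuse, from 10.60 to 11.59. The spread within groups was below that of the median tested gene (SD 0.20) for Fabp4 (0.087), Lpl (0.11), Adipoq (0.12) and Cd36 (0.16), and above it for the other 5, up to 0.46 for Lep. The highest value on any gland array was between 14.01 and 14.22, so the Fabp4 probe set lay close to the top of the scale; what this does to its differences was not tested.

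**Figure D1:**
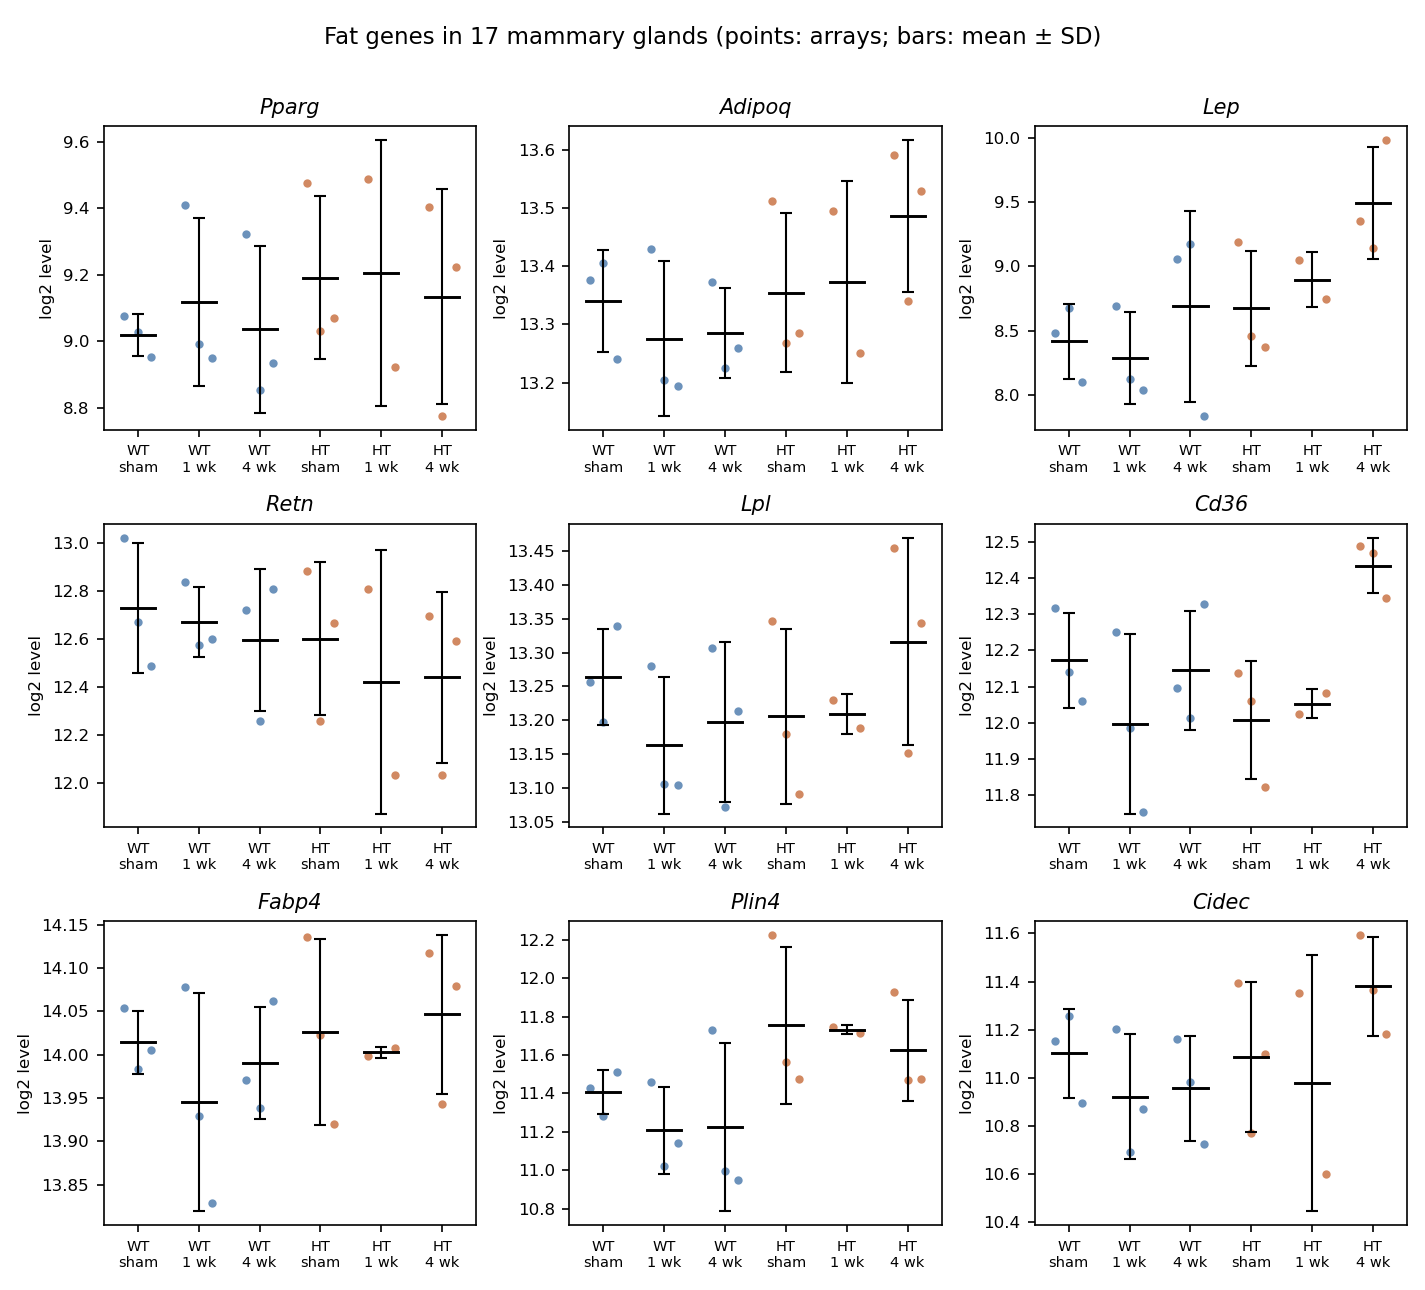
Log2 level (vertical axis) of the 9 fat genes in each gland (points) by genotype and treatment, with the mean and SD of each group. The 3 HT glands at 4 weeks hold the 3 highest Cd36 values of all glands (12.35 to 12.49), just above WT 4-week gland 3 (12.33). The share of all genes that do the same was not counted.

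In WT glands, 10 cGy left the fat genes within the spread of the arrays. One week after exposure 1 of 9 was higher than in sham, against 45.3% of all tested genes, with a median difference of -0.10 (all genes -0.02). None reached an unadjusted p of 0.05, against 4.54% of all genes, and none the adjusted threshold, against 0% of all genes. The count was 0 without irradiated gland 1 and 2 without sham gland 1. The differences ran from -0.20 (SE 0.22) for Plin4 to 0.10 (SE 0.20) for Pparg. At 4 weeks 2 of 9 were higher, against 54.7% of genes, with a median of -0.05. That count was 5 without WT 4-week gland 2, 4 without WT sham gland 1, and 1 without WT 4-week gland 1 or WT sham gland 3. Without the 3 glands rich in B cell markers it was also 4. Again none reached an unadjusted p of 0.05 (2.29% of genes) or the adjusted threshold (0%). The 95% interval for Cd36 at 4 weeks was -0.29 to 0.24, and for Lep -0.45 to 0.99. The data thus bound the Cd36 difference more tightly than the Lep difference.

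In HT glands 1 week after 10 cGy, 5 of 9 genes were higher than in sham, against 36.1% of genes, with a median difference of 0.00 against -0.06 over all genes. None reached an unadjusted p of 0.05 (3.96% of genes) or the adjusted threshold (0%). Only 2 arrays stand behind this group, and the count ran from 1 (without HT sham gland 3) to 8 (without HT sham gland 1) when 1 gland was left out. It was 8 as well without the 3 glands rich in B cell markers.

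At 4 weeks, HT glands had more Cd36 and Lep RNA than HT sham glands on average, and neither difference passed the adjusted threshold. Cd36 read 12.14, 12.06 and 11.82 in the 3 HT sham glands. In the 3 HT glands at 4 weeks it read 12.49, 12.47 and 12.35. The groups do not overlap, as is the case in this direction for 6.47% of all tested genes. The difference was 0.43 (SE 0.12, 1.34-fold, limma adjusted p = 0.641). All 3 Cd36 probe sets were higher, by 0.36, 0.43 and 0.25. Lep read 9.19, 8.46 and 8.37 in HT sham glands, and 9.35, 9.14 and 9.98 at 4 weeks. The lowest 4-week gland lay just under the highest sham gland, so these groups overlap. Between glands of the same repeat number Lep was higher at 4 weeks by 0.16, 0.69 and 1.61, and Cd36 by 0.35, 0.41 and 0.52. Adipoq and Cidec were also higher in all 3 such pairs, Lpl in 2, and Fabp4, Plin4 and Pparg in 1 each. Retn was lower in all 3, by -0.19, -0.23 and -0.07. Pairing by number was seen in these data and is not stated in the labels. As the Cd36 groups do not overlap, Cd36 would be higher in all 3 pairs under any pairing. The share of all genes higher or lower in all 3 pairs was not counted. The Lep difference between the group means was 0.82 (SE 0.34, 1.76-fold, limma adjusted p = 0.867). It was 0.57 without the gland with the highest value. Of the 9 genes, 6 were higher at 4 weeks (52.7% of all genes), 2 at an unadjusted p under 0.05 (5.29% of genes) and 0 at the adjusted threshold (0.0154% of genes). The count of 6 was 5 without HT 4-week gland 1 or HT sham gland 3. It was 8 without HT 4-week gland 2, without HT sham gland 1 or without the 3 glands rich in B cell markers. Fabp4 differed by 0.02 (SE 0.08) on its brightest probe set and by 0.58, 0.43 and 0.08 on its other 3. Markers of other cells differed in both directions, and none passed the adjusted threshold. Of 13 tested luminal markers 9 were lower, 6 of them at an unadjusted p under 0.05 (Krt19 at -1.28, SE 0.25), with a median of -0.17, while Elf5 was higher by 0.89 (SE 0.30), Epcam read 0.08 (SE 0.19) and Cdh1 -0.05 (SE 0.17). Of 10 basal epithelium markers 8 were higher (median 0.15), 0 at an unadjusted p under 0.05. Of 12 fibroblast and collagen markers 8 were higher (median 0.10), with Postn at 0.41 (SE 0.15) and Col3a1 at 0.22 (SE 0.08). All 5 tested B cell and lymph node markers were lower (median -1.04), as were 15 of 16 skeletal muscle markers (median -0.53), with 0 at an unadjusted p under 0.05. With the luminal and muscle marker means as covariates the Cd36 difference was 0.33 (SE 0.14) and the Lep difference 0.50 (SE 0.37). In bulk tissue, fewer cells of a type and less RNA per cell cannot be told apart.

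HT glands had more Plin4 and Lep than WT glands on average over sham, 1 week and 4 weeks, again short of the adjusted threshold. Plin4 read 11.43, 11.28 and 11.51 in WT sham glands, and 12.22, 11.56 and 11.47 in HT sham glands. One week after 10 cGy it read 11.46, 11.02 and 11.14 in WT and 11.75 and 11.71 in HT glands. At 4 weeks it read 11.73, 11.00 and 10.95 in WT and 11.93, 11.47 and 11.47 in HT glands. The HT mean was thus higher in all 3 settings, while single glands overlapped at sham and at 4 weeks. Averaged over the settings, the Plin4 difference was 0.42 (SE 0.13, 1.34-fold, limma adjusted p = 0.294). The Lep difference was 0.56 (SE 0.20, 1.47-fold, limma adjusted p = 0.336), and Retn ran the other way at -0.18 (SE 0.14, adjusted p = 0.588 by limma). In all, 8 of 9 genes were higher in HT, against 44.7% of genes, with a median difference of 0.10 (all genes -0.02). Of these, 2 had an unadjusted p under 0.05, against 12% of genes, and 0 passed the adjusted threshold, against 0.0463% of genes. With sham glands alone, 5 of 9 were higher (49.4% of genes; 2 of 9 without HT sham gland 1, 3 of 9 without the 3 glands rich in B cell markers or the 4 rich in muscle markers), 0 at an unadjusted p under 0.05 (3.55%) and 0 at the adjusted threshold (0%).

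All 16 skeletal muscle markers were lower in HT on average, with a median difference of -1.48 and 0 past the adjusted threshold. The markers are read from the same glands, so they are not 16 separate observations. Their mean level ranged from 4.66 to 11.45 in WT sham, 4.56 to 9.38 in WT at 1 week and 4.48 to 9.76 in WT at 4 weeks. In HT glands it ranged from 4.50 to 7.33 in sham, 5.22 to 7.75 at 1 week and 4.95 to 5.34 at 4 weeks. Of 12 fibroblast and collagen markers, 0 were higher in HT, 4 were lower at an unadjusted p under 0.05 and 0 passed the adjusted threshold, with a median of -0.13. Without the 4 muscle-rich glands the Plin4 difference was 0.36 (SE 0.17) and the Lep difference 0.35 (SE 0.19), and 0 of the fat genes had an unadjusted p under 0.05.

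**Figure D2:**
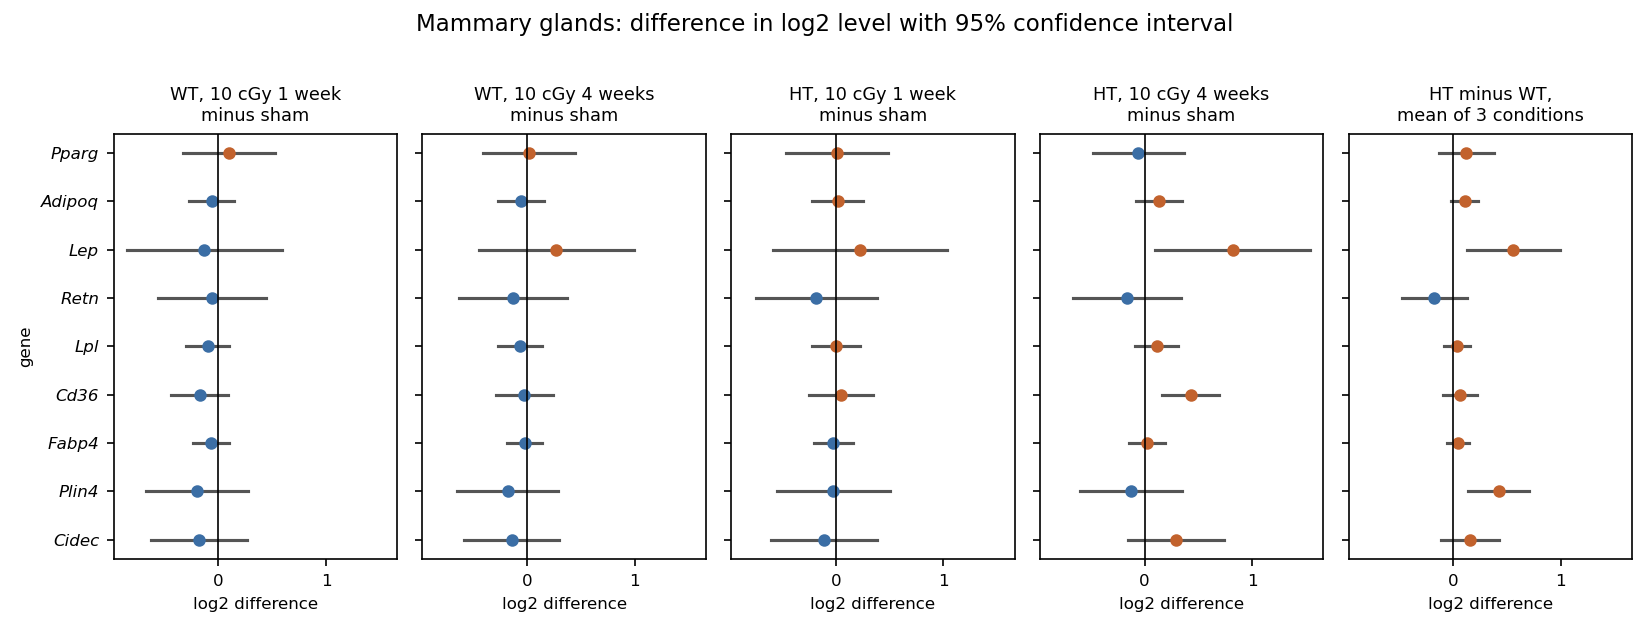
Difference in log2 level (horizontal axis) of each fat gene in 5 gland comparisons, with the point at the estimate and the line as its 95% confidence interval. The intervals that leave 0 aside belong to Cd36 and Lep in HT glands at 4 weeks and to Plin4 and Lep in the mean genotype difference, and none of these passed the adjusted threshold.

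Between 1 and 4 weeks after 10 cGy, averaged over the genotypes, Cd36 was 0.27 higher (SE 0.09, 1.20-fold, limma adjusted p = 0.227), the lowest adjusted p of the fat genes in glands. In all, 6 of 9 genes were higher at 4 weeks, against 63.2% of genes. Only Cd36 had an unadjusted p under 0.05, against 15.7% of all genes, and 0 passed the adjusted threshold, against 0.0695% of genes. With all glands kept, the share of fat genes is near that of the other genes in each count. The count of 6 was 8 without the 3 glands rich in B cell markers. When 1 gland was left out it ran from 6 to 8.

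The radiation response was also compared between genotypes. At 1 week the HT change exceeded the WT change in 7 of 9 genes (44.5% of genes), with 0 at an unadjusted p under 0.05 (3.05% of genes) and 0 past the adjusted threshold (0%). At 4 weeks it did so again in 7 of 9 (49.8% of genes). Cd36 alone had an unadjusted p under 0.05 (1.78% of genes), and 0 passed the adjusted threshold (0%). Its HT change exceeded its WT change by 0.45 (SE 0.18), with an adjusted p of 1.00 by limma. When 1 gland was left out, the count of 7 ran from 5 to 9 at 1 week and from 6 to 9 at 4 weeks. It was 8 at both times without the 3 glands rich in B cell markers. At 1 week it was also 8 without the 4 muscle-rich glands. The comparisons with sham share their control glands, so these counts are not independent of those above.

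The repeat numbers carried by the labels went along with the fat genes. In 42 of the 54 sets of 1 gene in 1 gland group, the gland numbered 1 was the highest, a share of 77.8% against 37.0% over all tested genes. The fat genes vary together within a gland, so these sets are not separate observations. Pparg was highest in that gland in all 6 groups, with 9.08, 9.41, 9.32, 9.47, 9.49 and 9.40 in the order WT sham, 1 week and 4 weeks, then HT sham, 1 week and 4 weeks. Adipoq, Retn, Lpl, Plin4 and Cidec were highest in it in 5 of the 6 groups, and Lep in 3. The 3 glands with the most B cell and lymph node markers were also numbered 1, with list means of 7.99 (WT at 1 week), 6.74 (HT sham) and 6.23 (WT sham). What the number stands for is not stated in the labels.

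The neighbouring pathways of the fat cell were read from 6 lists that leave out the genes above. In no gland comparison did a gene of these lists pass the adjusted threshold. In HT glands at 4 weeks against sham, 9 of 11 adipogenic transcription factors were higher, with Klf15 at 0.31 (SE 0.18). Of 14 lipolysis and droplet genes 8 were higher, 2 of them at an unadjusted p under 0.05: G0s2, an inhibitor of the main triglyceride lipase, at 0.62 (SE 0.22), and Plin2, a droplet coat gene, at 0.29 (SE 0.13). Of 9 lipid transport genes 8 were higher, with Angptl4, an inhibitor of lipoprotein lipase, at 0.43 (SE 0.11, limma adjusted p = 0.511). Triglyceride synthesis was split, with 8 of 14 higher and Lpin1 at 0.30 (SE 0.16), as were insulin and adrenergic input, with 4 of 7, and adipokines and their receptors, with 5 of 8 and Rarres2 at 0.41 (SE 0.28). In the mean genotype difference the synthesis list ran against the fat genes: 12 of 14 were lower in HT, with a median of -0.27, although Pck1, an enzyme of glycerol synthesis in fat, was higher by 0.42 (SE 0.17). None of these counts is a test of the list.

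Across the 48 tumours Adipoq ranged from 3.70 to 10.76, Fabp4 from 7.87 to 13.65 and Cd36 from 4.88 to 9.79. Plin4 ranged from 4.71 to 9.38, Cidec from 4.07 to 8.66, Lpl from 7.32 to 11.66, Retn from 5.88 to 9.40 and Pparg from 4.39 to 7.64. The within-group SD of Adipoq was 1.75, and 0.915% of tested genes had a larger one; the median tested gene had 0.40. Lep was at or near the dim end of the array, under the filter level of 5.14 in 47 of 48 tumours. Cidec lay under that level in 26 tumours, Pparg in 24, Adipoq in 12, Plin4 in 6 and Cd36 in 2. Values there are dim, so differences that include them are not exact folds. Lep still followed the mean of the other 8 fat genes across tumours, with r = 0.76 (rho 0.75). Fabp4, Lpl and Retn stayed above the filter level in all 48.

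The upper end was held by few tumours. By the mean of the 9 genes the highest were HT IR tumour 11 (9.44), WT sham tumour 5 (8.58), WT sham tumour 9 (8.55), HT IR tumour 17 (8.41) and HT IR tumour 14 (8.19). HT IR tumour 11 was among the 5 highest for all 9 genes, and the next 3 for 7 genes each. The 23 tumours of WT IR hosts held none of the 9 highest means; their highest was 7.28. For 8 of the 9 genes this group also had the smallest SD of the 4, as for Pparg, with 0.22 against 0.96 in WT sham, 0.43 in HT sham and 0.65 in HT IR. The fit assumes one spread for all groups, so an alternative with array weights is given in the closing section.

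**Figure D3:**
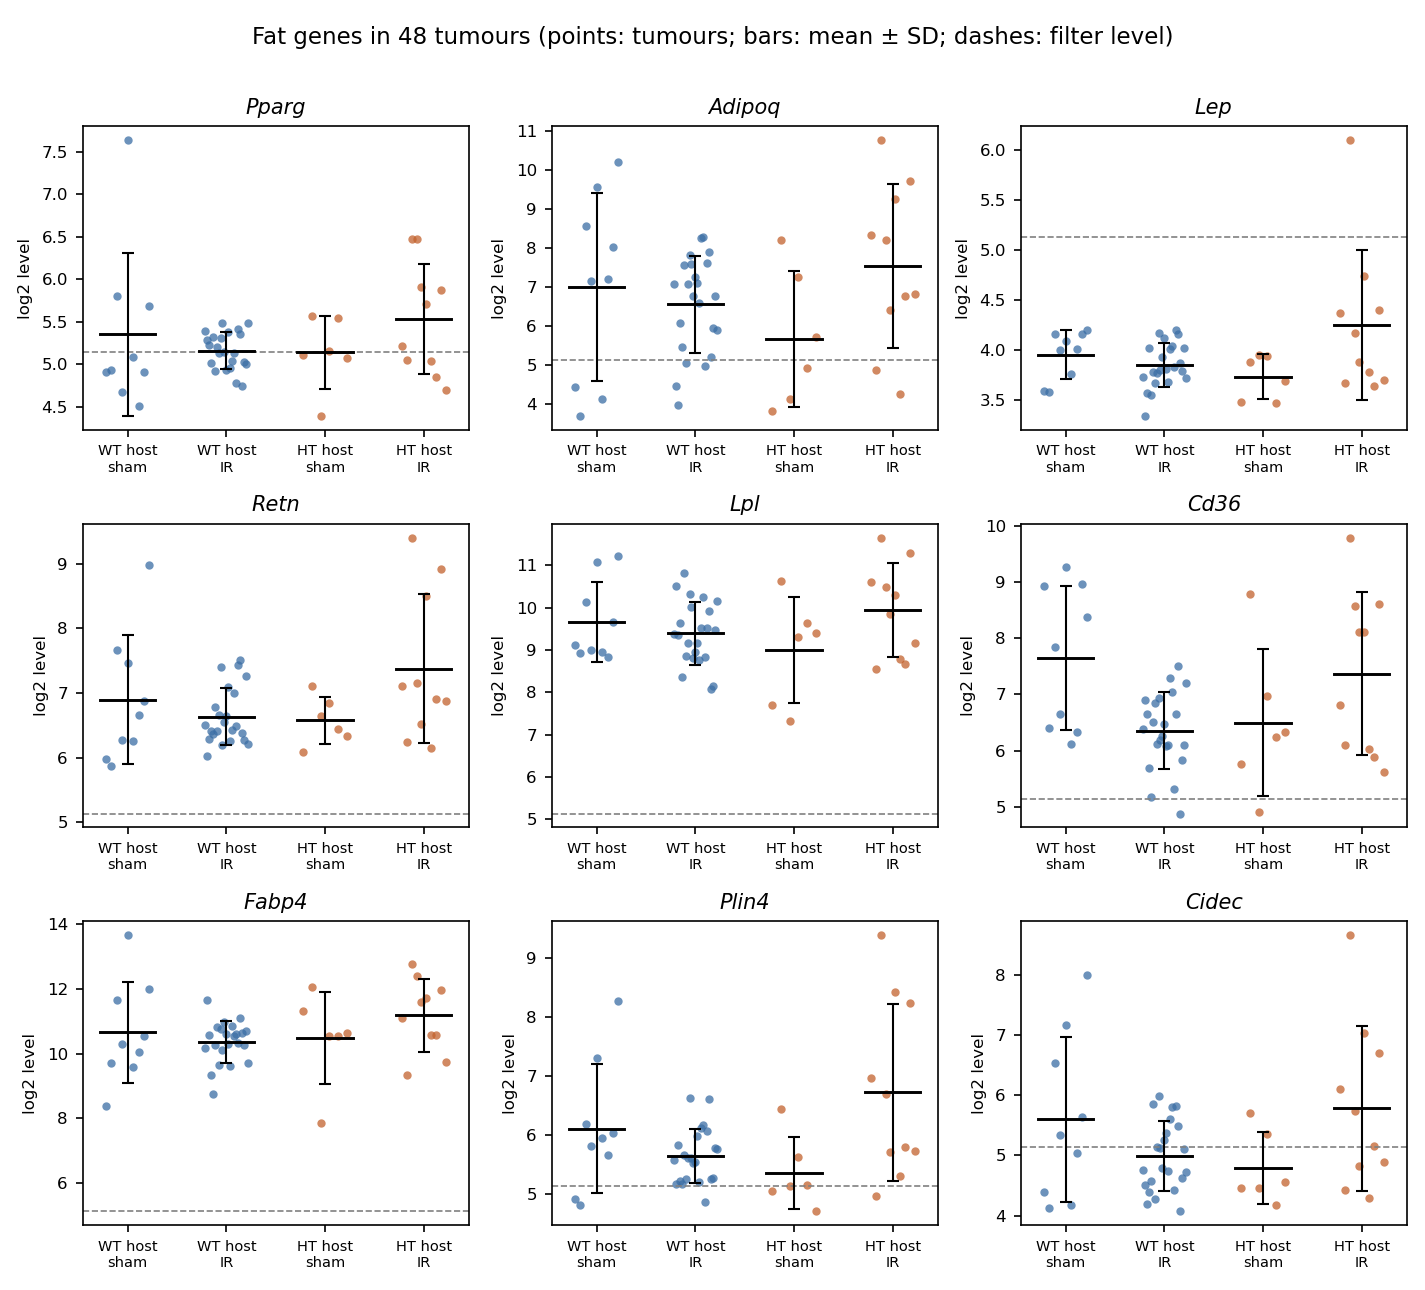
Log2 level (vertical axis) of the 9 fat genes in each tumour (points) by host genotype and treatment, with the mean and SD of each group and the filter level of 5.14 as a dashed line. Single tumours of the WT sham and HT IR groups reach the highest Adipoq levels (10.19 and 10.76), while WT IR tumours run from 3.97 to 8.28.

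Radiation of WT hosts went with lower means of all 8 tested fat genes, Cd36 first, and none passed the adjusted threshold. In WT sham tumours Cd36 ran from 6.12 to 9.26 with a median of 7.84. In WT IR tumours it ran from 4.88 to 7.51 with a median of 6.39. The upper part of the sham range thus has no counterpart among IR tumours, while the lower parts overlap. The difference was -1.30 (SE 0.41, 0.407-fold, limma adjusted p = 0.489), and the other 2 Cd36 probe sets gave -1.26 and -0.74. With the tumour of disagreeing labels placed by its other label it was -1.17. In all, 0 of 8 genes were higher in IR, against 50.4% of genes, with a median of -0.37 (all genes 0.00). Of these 1 had an unadjusted p under 0.05, against 6.94% of genes, and 0 passed the adjusted threshold, against 0% of genes. The other 7 differences ran from -0.19 (SE 0.21) for Pparg to -0.62 (SE 0.37) for Cidec. The count rests on single tumours. Without WT sham tumour 5, Pparg read 0.09 (SE 0.17) and Fabp4 0.08 (SE 0.38), so 2 of 8 were higher and the median was -0.15. Without WT sham tumour 9, Retn came to 0.00 from -0.26 (SE 0.29), and 1 of 8 was higher. Array weights also gave 1 of 8. All 10 blood endothelium markers (median -0.40) and all 7 adipocyte progenitor markers (median -0.29) were lower as well, with 0 of either at an unadjusted p under 0.05.

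In HT hosts the fat genes had higher means after radiation, and again none passed the adjusted threshold. Plin4 ran from 4.71 to 6.44 with a median of 5.15 in HT sham tumours. In HT IR tumours it ran from 4.97 to 9.38 with a median of 6.24. The groups overlap over most of the sham range, and the highest IR tumours stand above it. The difference was 1.36 (SE 0.46, limma adjusted p = 1.00). Adipoq ran from 3.84 to 8.19 (median 5.32) in HT sham and from 4.26 to 10.76 (median 7.50) in HT IR tumours, a difference of 1.86 (SE 0.88). Adipoq lay under the filter level in 3 of 6 HT sham and 2 of 10 HT IR tumours, and Plin4 in 2 of 6 and 1 of 10, so neither difference is an exact fold. All 8 genes were higher in IR, against 50.7% of genes, with a median difference of 0.90 (all genes 0.00). Of these, 4 had an unadjusted p under 0.05 (Plin4, Adipoq, Retn and Cidec), against 3.95% of genes, and 0 passed the adjusted threshold, against 0% of genes. The count rests on single tumours: it was 1 without HT sham tumour 1 and 6 without HT sham tumour 2. The 8 genes varied together across tumours, so they are not 8 independent observations. All 12 skeletal muscle markers (median 0.72) and all 10 blood endothelium markers (median 0.19) were also higher in IR, with 0 of either at an unadjusted p under 0.05. Most fibroblast and collagen markers were lower, such as Col1a1 at -0.80 (SE 0.48), while Fn1 was higher by 0.67 (SE 0.48). Basal markers were split, with Krt5 at -1.41 (SE 0.80) and Oxtr at 0.60 (SE 0.87). Progenitor markers were split too, with Pdgfra at -0.57 (SE 0.74) and Dlk1 at 0.55 (SE 0.35). The part of these cells in the fat gene differences was not tested.

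Host genotype gave the same 2 directions. Among sham hosts, 0 of 8 genes were higher in tumours of HT hosts, against 50.1% of genes, with a median of -0.70. This count too rests on single tumours: without WT sham tumour 5 it was 2 of 8, with Fabp4 at 0.21 (SE 0.50) and Pparg at 0.08 (SE 0.22), and the median was -0.54. It was 1 of 8 without WT sham tumour 9 or without HT sham tumour 3, and 2 of 8 with array weights. Cd36 had the one unadjusted p under 0.05 (5.29% of genes), at -1.15 (SE 0.55), and 0 passed the adjusted threshold (0%). Among irradiated hosts, 8 of 8 were higher in HT, against 50% of genes, with a median of 0.81. Of these, 5 had an unadjusted p under 0.05, against 5.6% of genes: Plin4, Retn, Cd36, Cidec and Fabp4. None passed the adjusted threshold, against 0.00782% of genes. Plin4 ran from 4.86 to 6.62 (median 5.61) in WT IR tumours, and the highest HT IR tumours lay above that range. The difference was 1.07 (SE 0.34, 2.10-fold, limma adjusted p = 0.727), and 0.78 without HT IR tumour 11. Retn, with 6.03 to 7.51 (median 6.50) in WT IR and 6.15 to 9.40 (median 7.01) in HT IR tumours, differed by 0.74 (SE 0.28, 1.67-fold). Without HT IR tumour 11 the count at an unadjusted p under 0.05 was 1 of 8, and without HT IR tumour 15 it was 7. All 4 Fabp4 probe sets were higher in HT IR, by 0.82, 1.01, 0.88 and 0.69.

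The radiation difference in HT hosts exceeded that in WT hosts for all 8 genes, against 50.6% of genes, with a median of 1.41. In this interaction 6 genes had an unadjusted p under 0.05, against 4.83% of genes, and 0 passed the adjusted threshold, against 0% of genes. Cd36 came to 2.16 (SE 0.68), Plin4 to 1.82 (SE 0.57), Cidec to 1.61 (SE 0.61), Adipoq to 2.30 (SE 1.10), Retn to 1.06 (SE 0.48) and Lpl to 1.20 (SE 0.59). For each of these the limma adjusted p was 1.00. The 5 tumour comparisons are built from the same 4 groups, so the interaction restates the directions above and adds none of its own.

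**Figure D4:**
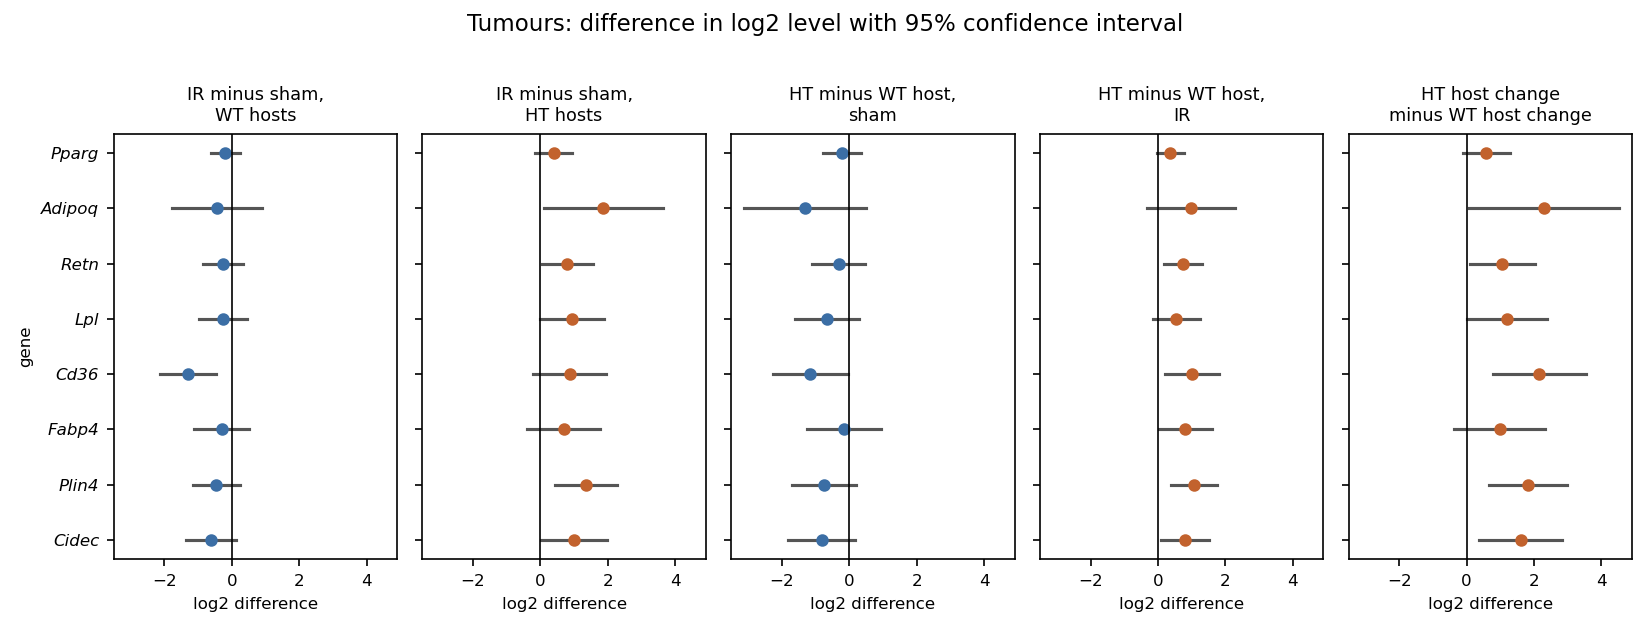
Difference in log2 level (horizontal axis) of the 8 tested fat genes in 5 tumour comparisons, with the point at the estimate and the line as its 95% confidence interval. All 8 points lie left of 0 for radiation of WT hosts and right of 0 for radiation of HT hosts, and none passed the adjusted threshold.

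In the tumours the neighbouring lists had smaller median differences than the fat genes, without a test of that gap. No gene of the 6 lists passed the adjusted threshold in any tumour comparison. For radiation of HT hosts the lipolysis and droplet list had 10 of 14 higher with a median of 0.05, the synthesis list 10 of 13 with a median of 0.14, and the transport list 3 of 8 with a median of -0.12. Acly, which makes the precursor of fatty acid synthesis, was higher by 0.38 (SE 0.14), and Lipe, hormone-sensitive lipase, by 0.32 (SE 0.24). For radiation of WT hosts 12 of 14 lipolysis and droplet genes were lower, among them Pnpla2, the first lipase of the droplet, at -0.42 (SE 0.21). Among irradiated hosts Rbp4, a carrier of retinol that fat also secretes, was higher in HT by 1.15 (SE 0.49). In the interaction, Pnpla2 came to 0.70 (SE 0.34), Mgll, the last lipase of the droplet, to 1.02 (SE 0.57), and Lpin1 to 0.60 (SE 0.25).

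Markers of other cells of the fat pad moved in part with the fat genes. Among irradiated hosts 6 of 7 adipocyte progenitor markers were higher in HT, with Dlk1 at 0.82 (SE 0.26) and Dpp4 at 0.45 (SE 0.22). All 10 blood endothelium markers were higher, with a median of 0.60 and Vwf at 0.98 (SE 0.33), and 0 markers of either list passed the adjusted threshold. Epithelial and milk markers were higher too, with 12 of 13 luminal markers (median 0.32), 9 of 10 basal markers (median 0.43) and 8 of 8 milk protein genes (median 0.72). The mean of the progenitor list ranged from 6.28 to 9.18 in WT sham, 6.52 to 8.19 in WT IR, 6.08 to 8.32 in HT sham and 6.54 to 8.93 in HT IR tumours. The endothelial list ranged from 6.52 to 11.42, 6.44 to 8.28, 6.24 to 9.05 and 6.86 to 9.83 in the same order. WT sham tumour 5, one of the richest in fat genes, held the highest value of both lists within its group. HT IR tumour 17 held the highest skeletal muscle mean of its group (10.23), against 5.26 in tumour 11 and 5.16 in tumour 14. With luminal and fibroblast marker means as covariates the Plin4 difference among irradiated hosts was 0.82 (SE 0.32), and that for radiation of HT hosts 1.47 (SE 0.42).

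The fat genes varied together. Across the 48 tumours each gene followed the mean of the other 8, from r = 0.70 (Spearman's rho 0.57) for Pparg to r = 0.93 (rho 0.90) for Cidec. For all 9 the permutation p of r was 1e-05, the smallest that 100000 permutations can give, also after Benjamini-Hochberg adjustment over the 9. Leaving out the 2 tumours farthest from the median gave r from 0.67 to 0.90, and within groups r ran from 0.67 to 0.93. Of the 36 pairs of genes the median r was 0.68 and the highest 0.92, between Retn and Plin4. All genes of a tumour come from the same RNA and array, which the points of each relation share.

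**Figure D5:**
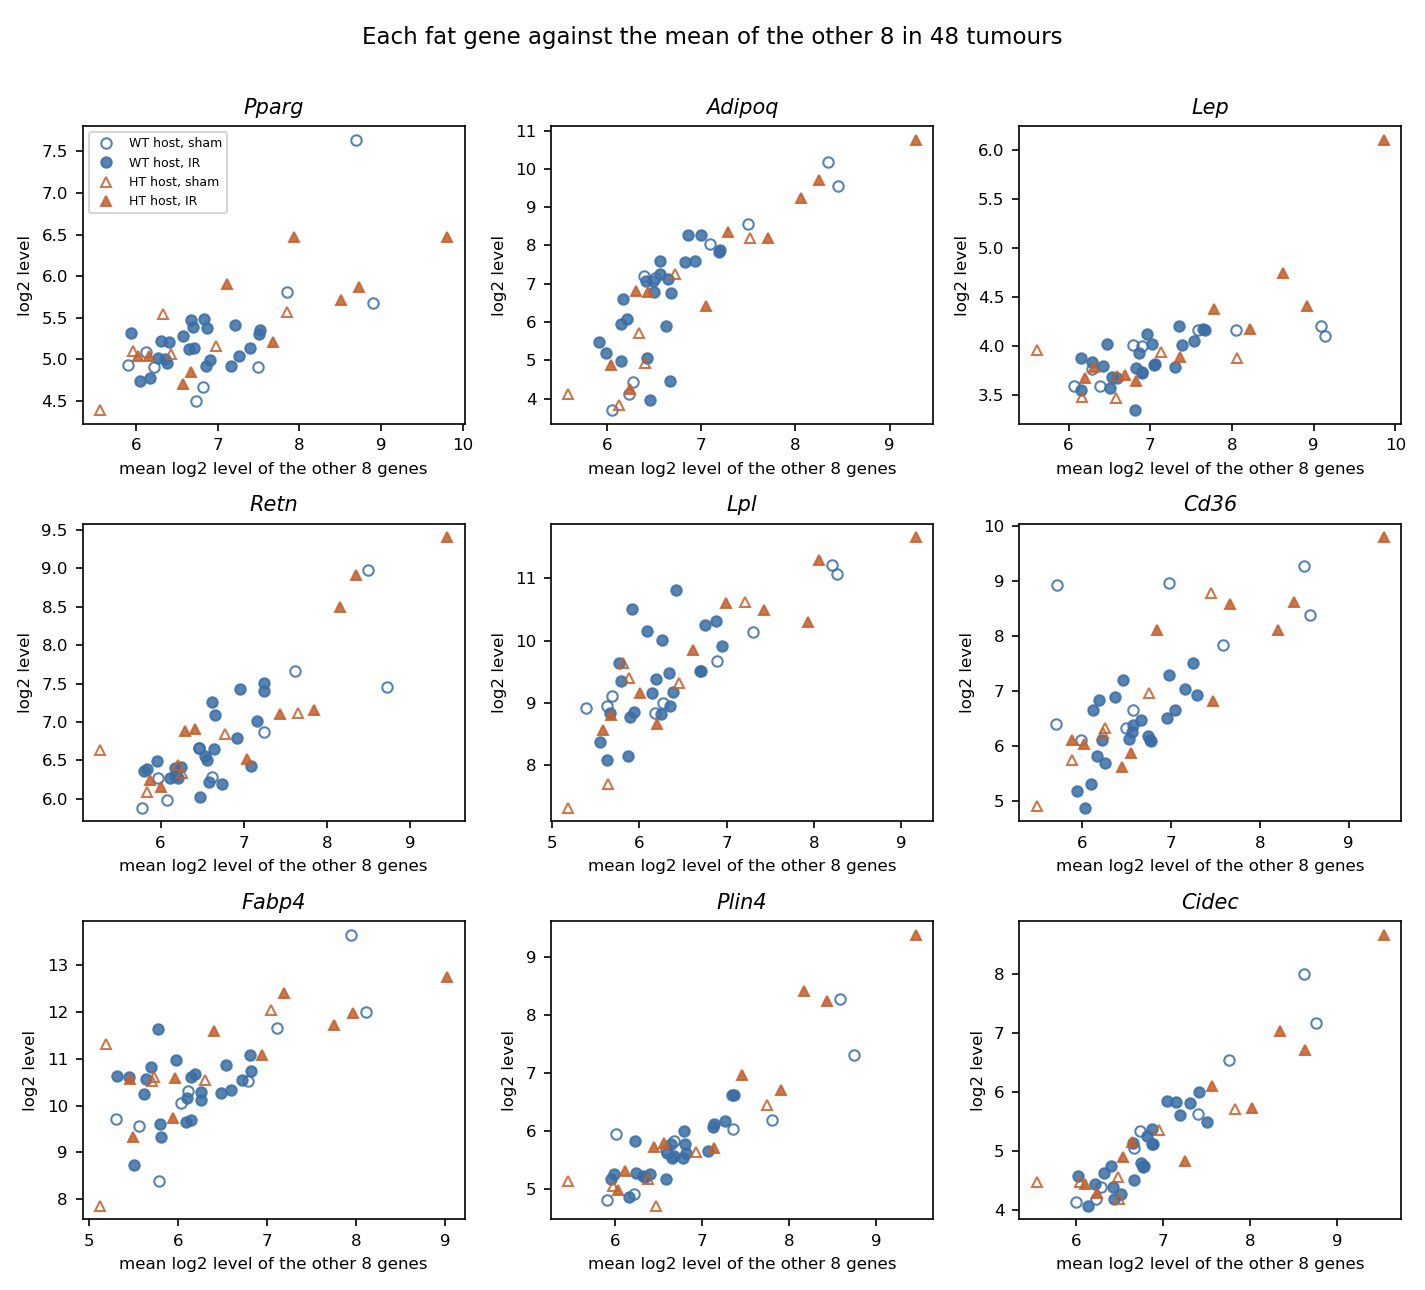
Log2 level of each fat gene (vertical axis) against the mean log2 level of the other 8 (horizontal axis) in 48 tumours, with WT hosts as circles, HT hosts as triangles, and filled symbols for irradiated hosts. Cidec follows the others most closely (r = 0.93) and Pparg least (r = 0.70).

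In the 17 glands the relations were looser, and by r 2 of the 9 did not pass the test. Adipoq followed the mean of the other 8 with r = 0.97 (rho 0.95, permutation p = 1e-05, adjusted 9e-05), and r was 0.96 without the 2 farthest glands. Cidec had r = 0.79 (rho 0.80), Lpl 0.76 (rho 0.69), Pparg 0.76 (rho 0.73), Fabp4 0.69 (rho 0.61), Plin4 0.64 (rho 0.50) and Lep 0.56 (rho 0.55), each with an adjusted permutation p between 0.00081 and 0.0262. Without the 2 farthest glands Fabp4 had r = 0.51 (adjusted permutation p = 0.0778) and Lep 0.46 (adjusted 0.112), so neither passed without those glands. Leaving them out also narrows the range and leaves 15 glands, which by itself can lower r and raise p. Cd36 had r = 0.46 (rho 0.53, permutation p of r = 0.0618, adjusted 0.0695) and Retn 0.25 (rho 0.36, permutation p of r = 0.332, adjusted 0.332). By rho the adjusted permutation p was 0.0378 for Cd36 and 0.153 for Retn, so only Retn did not pass by rank. With each value set against its group mean, Retn reached r = 0.65 (adjusted permutation p = 0.00865). Cd36, the gene with the lowest adjusted p in both tissues, was then the one that followed the others least in glands (r = 0.32).

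Genes outside the list with the most similar pattern differed between the tissues. Over deviations from group means in the 17 glands, Palmd had the highest r with the mean of the 9 fat genes (0.96), followed by Rgcc (0.95), Hibadh (0.94), Tdrp (0.93), Alb (0.93), Proca1 (0.92), Esyt1 (0.92), Echdc3 (0.92), Hibch (0.92) and Klb (0.92). In all, 112 genes had r over 0.8 there. Over the 48 tumours only 2 genes did: Car3, a carbonic anhydrase abundant in fat (0.88, with levels from 6.94 to 13.64), and Cyp2e1 (0.84, with levels from 4.23 to 10.36). The next were Clec10a (0.78), Adh1 (0.76), Cd209a (0.76), Wfdc21 (0.75), Slc36a2 (0.74), Ackr1 (0.73), Serpina3n (0.72) and Svep1 (0.71). These are rankings of all genes by 1 measure, given as a description.

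The mean of the fat genes was also set against the means of 10 marker lists of other cells. Across tumours it followed the adipocyte progenitor list with r = 0.51 (rho 0.41, permutation p = 0.00036, adjusted over 10 lists 0.0036), and with 0.40 without the 2 farthest tumours. For blood endothelium r was 0.41 (rho 0.22, adjusted permutation p of r = 0.0174) and for fibroblasts and collagen 0.40 (rho 0.29, adjusted 0.0174). Each r fell to 0.23 without the 2 farthest tumours. By rho the adjusted permutation p was 0.196 for endothelium and 0.0935 for fibroblasts and collagen, so neither passed by rank. With each value set against its group mean, blood endothelium had r = 0.37 (adjusted permutation p of rho 0.175), and 0.22 without the 2 farthest tumours. Fibroblasts and collagen then had 0.43 (adjusted permutation p of rho 0.0442), and 0.37 without them. Basal epithelium went from 0.28 (adjusted permutation p = 0.091) to 0.32 (adjusted 0.0439) in that setting, and had 0.34 without them. The B cell list gave r = 0.38 (rho 0.36, adjusted permutation p = 0.0263) and milk proteins 0.34 (rho 0.31, adjusted 0.0353). For muscle r was 0.07 and for luminal epithelium 0.05, with adjusted permutation p = 0.717 for both. Across glands no list passed, the largest being muscle at r = -0.37 (rho -0.32, adjusted permutation p = 0.424). Within gland groups the B cell and lymph node list gave r = 0.66 (rho 0.48, adjusted permutation p of r = 0.0276), and 0.38 without the 2 farthest glands. By rho the adjusted permutation p was 0.270, so this relation did not pass by rank.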

How the data were processed

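RNA of 17 glands and 48 tumours was measured on Affymetrix 3' arrays, and RMA gave the values (per the submitters' processing notes, which name no version). The authors deposited gland values as linear intensity and tumour values as log2. Gland values were transformed to log2 here, and nothing was normalized again. Of 45101 probe sets, 34958 carried 1 gene, 932 several and 9211 none in the platform annotation, and 99.4% of the former matched RefSeq. The probe set with the highest mean stood for a gene, and genes under the 40th percentile of mean level in a tissue were set aside.

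A group-means model was fitted per tissue with limma 3.58.1 (R 4.3.3; lmFit, eBayes with trend), with Benjamini-Hochberg adjustment over all tested genes and a threshold of 0.05; the scripts were tested on simulated data. Arrays, not molecules, limit precision. Relations used Pearson's r, with Spearman's rho beside it, each with 100000 two-sided permutations. With Plin1 unmeasured, a gene was compared with the mean of the other 8, not 9. Genes of similar pattern were the 10 per tissue with the highest r with the mean of the measured fat genes, after group means were removed. From each other list at most the 2 genes with the smallest p in a comparison were named, where none passed the threshold.

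The genes and lists were chosen with earlier results of these data known, and no pattern here is independent support for those. Counts at an unadjusted p, relations with marker lists, counts by repeat number and the motif set were added after the data were seen. Samples with the same repeat number deviated together in every pair between sham and 4-week glands of the same genotype (r from 0.123 to 0.216 in WT and from 0.112 to 0.316 in HT). Some other gland groups did so too, such as WT sham with HT 1-week glands (2 pairs, r from 0.225 to 0.283). Another case was WT 1-week with HT 4-week glands (r from 0.091 to 0.365). Such pairing was seen in the data and is not stated in the labels. Alternatives were other probe set rules, no filter, quantile normalization, no trend, an offset of 16, the repeat block, covariates, array weights, the other placement of 1 tumour, and leaving out muscle-rich, lymph-node-rich or single arrays.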

Additional observations from a re-analysis of the deposited data

Results flagged for a closer look

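Among 30 sets, made of the 9 genes and their mean in each of 3 tumour groups of 4 to 10 samples, a single sample stood apart by Dixon's criterion in 3, where about 1.5 would be expected by chance. Pparg in WT sham tumour 5 read 7.64, with the next highest at 5.80. Lep in HT IR tumour 11 read 6.10, with the next at 4.74, and this was the one tumour above the filter level for Lep. Fabp4 in HT sham tumour 3 read 7.87, the lowest of its group, with the next lowest at 10.5. The first and the second of these tumours also had the highest means of all fat genes in their groups.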

How the results depend on the processing

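No fat gene passed the adjusted threshold under any setting, with the lowest limma adjusted p at 0.129 in glands (Plin4, HT minus WT averaged over conditions, with the repeat number as a block: 0.40, SE 0.09) and 0.286 in tumours (Cd36, radiation of WT hosts, with array weights). The block changed no adjusted call. Of single genes, 1049 values under other settings and 3297 with 1 array left out kept the direction and side of the threshold of the main value, where a change of sign counted only for a value at least 1 SE from 0.

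Counts of fat genes at an unadjusted p under 0.05 were less stable, and the cause was not tested. In the mean genotype difference of glands the count fell from 2 to 0 without the 4 muscle-rich glands. In HT glands at 4 weeks it fell from 2 to 1 with muscle and luminal covariates. For radiation of HT hosts it went from 4 to 0 with the replicate block, 1 with array weights and 7 with luminal and fibroblast covariates. For genotype among irradiated hosts it went from 5 to 0 with the block and 2 with covariates. Same-numbered tumours did not deviate together, and HT sham and HT IR tumours share no number, so the block cannot pair them and its counts say nothing about stability. For the tumour interaction it went from 6 to 2 with the block and 3 with array weights. Leaving out 1 array at a time gave 1 to 2 in HT glands at 4 weeks, 2 to 4 in the mean genotype difference, 1 to 6 for radiation of HT hosts, 1 to 7 for genotype among irradiated hosts and 3 to 6 for the interaction (3 without WT sham tumour 3).

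Among gland relations, Retn reached r = 0.65 and Lep fell to 0.49 (adjusted permutation p = 0.0552) with group means removed. Without the 2 farthest glands Lep had r = 0.46 and Fabp4 0.51. Small groups, dim tumour signals near the filter level and the bright Fabp4 probe set limit what these arrays can show.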
